A study of Mus musculus with 6 samples.

Results

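miR-126a is described here through its 2 mature arms, mmu-miR-126a-3p and mmu-miR-126a-5p, which are 2 of the 1573 rows named as known mouse miRNAs in a table of 61628 small RNA rows. The arms were chosen by name, but the choice was made with their difference between the groups of this study already known, so their levels are given as a description and carry no test. The material was primary testicular peritubular myoid cells of C57BL/6J mice, the flat contractile cells around the seminiferous tubules. One group of libraries came from untreated cells (n = 3) and the other from cells given 50 nM endothelin-1 (ET1), a peptide that makes smooth muscle contract, for 5 min at 37 °C (n = 3). Both groups had been grown in DMEM/F12 with 10% fetal bovine serum under 5% CO2. The labels name DMEM/F12 as the treatment medium and do not say how many mice or cultures the libraries came from, nor whether the replicate libraries are separate cultures.

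miR-126 is the best known miRNA of the endothelium, the cell layer that lines blood vessels. It is made from an intron of Egfl7, a gene for a protein that endothelial cells secrete. The 3p strand represses Spred1 and Pik3r2, which restrain signalling downstream of vascular endothelial growth factor, and the 5p strand represses Dlk1, a Notch inhibitor, in endothelial cells. The miRNA is also found in blood stem cells and in platelets, so it marks the blood and vessel lineages rather than endothelium alone. Peritubular myoid cells are instead marked by the smooth muscle miRNAs miR-143 and miR-145.

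The hairpin is shown first because both arms are cut from it, with the bases of miR-126a-3p in capitals. The RefSeq table used here (GRCm38.p6) held a mature sequence for 1 of the 2 arms, miR-126a-3p, which is shown next with its seed, bases 2 to 8, in capitals. The last pair are the arms of miR-126b, a miRNA annotated on the opposite strand of the same locus, again with the seed in capitals.
mir-126a hairpin: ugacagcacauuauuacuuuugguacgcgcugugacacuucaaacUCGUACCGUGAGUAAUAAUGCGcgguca
miR-126a-3p: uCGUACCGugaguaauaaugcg
miR-126b-3p: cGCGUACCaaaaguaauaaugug
miR-126b-5p: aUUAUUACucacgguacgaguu

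The hairpin of 73 bases lies on the plus strand at chr2:26591357-26591429, and miR-126a-3p at chr2:26591402-26591423. In GENCODE M21 it lay within introns of 7 protein-coding transcripts of Egfl7 and of 1 that is subject to nonsense-mediated decay. It overlapped an exon of only 1 Egfl7 transcript, the retained-intron form Egfl7-206, whose exon runs from 26590899 to 26591563. It also lay in an intron of Gm20532, a longer transcript on the same strand. The minimum free energy fold of the hairpin, −31.2 kcal/mol, paired 19 of the 22 bases of miR-126a-3p with hairpin positions 7 to 27, the 5' side from which the other arm is cut. None of the other 1678 mature sequences in the RefSeq table shared the seed of miR-126a-3p. That table lacks some of the counted miRNAs, miR-126a-5p among them, so a match outside it would have been missed. The arms of miR-126b are read from the opposite strand, and 19 consecutive bases of miR-126b-5p were the reverse complement of bases within miR-126a-3p. Whether the counting used strand is not given in the sources used here. It is therefore not known whether tags of either row could enter the other. miR-126a-3p had 13300, 12906 and 6570 tags in untreated libraries 1, 2 and 3, and miR-126b-5p had 1, 0 and 0. The same is not known for miR-126a-5p and miR-126b-3p, which lies at chr2:26591363-26591385, opposite the 5' side of the hairpin. In untreated libraries 1, 2 and 3 miR-126a-5p had 55, 42 and 29 tags, and miR-126b-3p had 7, 1 and 2.

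The guide arm miR-126a-3p, which carries most of the known activity of the locus, was counted 13300, 12906 and 6570 times in untreated libraries 1, 2 and 3. It was counted 602, 565 and 915 times in ET1 libraries 1, 2 and 3. Every untreated library held far more than every ET1 library, and the lowest untreated count was 7.18 times the highest ET1 count. Libraries held 4381927 to 8651018 known miRNA tags, so counts were put on a common scale as CPM, the count for each 1000000 known miRNA tags, after TMM scaling, which sets aside the rows that differ most between libraries. On that scale miR-126a-3p stood at 1876, 1827 and 1102 CPM in untreated libraries and at 113, 119 and 161 CPM in ET1 libraries. Untreated library 3 was the lowest of its group and ET1 library 3 the highest of its own, and the groups did not approach each other.

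The group means of miR-126a-3p were 1602 ± 433.3 CPM in untreated and 131 ± 25.8 CPM in ET1 libraries (SD, n = 3 each), a difference of −3.61 on the log2 scale (SE 0.40). Within a group the highest library exceeded the lowest 1.70-fold in untreated and 1.42-fold in ET1, against 6.86-fold between the lowest untreated and the highest ET1 library. Counting error was smaller still, with an exact 95% Poisson interval of 104 to 122 CPM for ET1 library 1. Such intervals cover counting error only and treat tags as independent molecules, which amplified tags need not be. By library size alone, with no TMM step, the lowest untreated library (1053 CPM) was 5.55 times the highest ET1 library (189.6 CPM). Scaled to all tags of a library (RPM), the values were 637, 680 and 317 in untreated and 33.2, 29.1 and 46.9 in ET1 libraries.

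Among the known miRNAs of each library miR-126a-3p ranked 54th, 57th and 71st in untreated and 159th, 163rd and 151st in ET1 libraries. It made up 0.139% ± 0.0305 of known miRNA tags in untreated and 0.0150% ± 0.00347 in ET1 libraries.

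The passenger arm miR-126a-5p was counted 55, 42 and 29 times in untreated and 5, 8 and 11 times in ET1 libraries. These counts correspond to 7.76, 5.95 and 4.87 CPM in untreated and to 0.939, 1.69 and 1.93 CPM in ET1 libraries. The values of the groups did not overlap, but some of their counting intervals did: the exact 95% Poisson interval was 3.26 to 6.99 CPM for untreated library 3 and 0.964 to 3.45 CPM for ET1 library 3. The means were 6.19 ± 1.46 and 1.52 ± 0.517 CPM (SD, n = 3 each), a log2 difference of −2.01 (SE 0.54). At 5 to 11 tags a library, the precision of this arm in the ET1 group is set by counting.

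**Figure D1:**
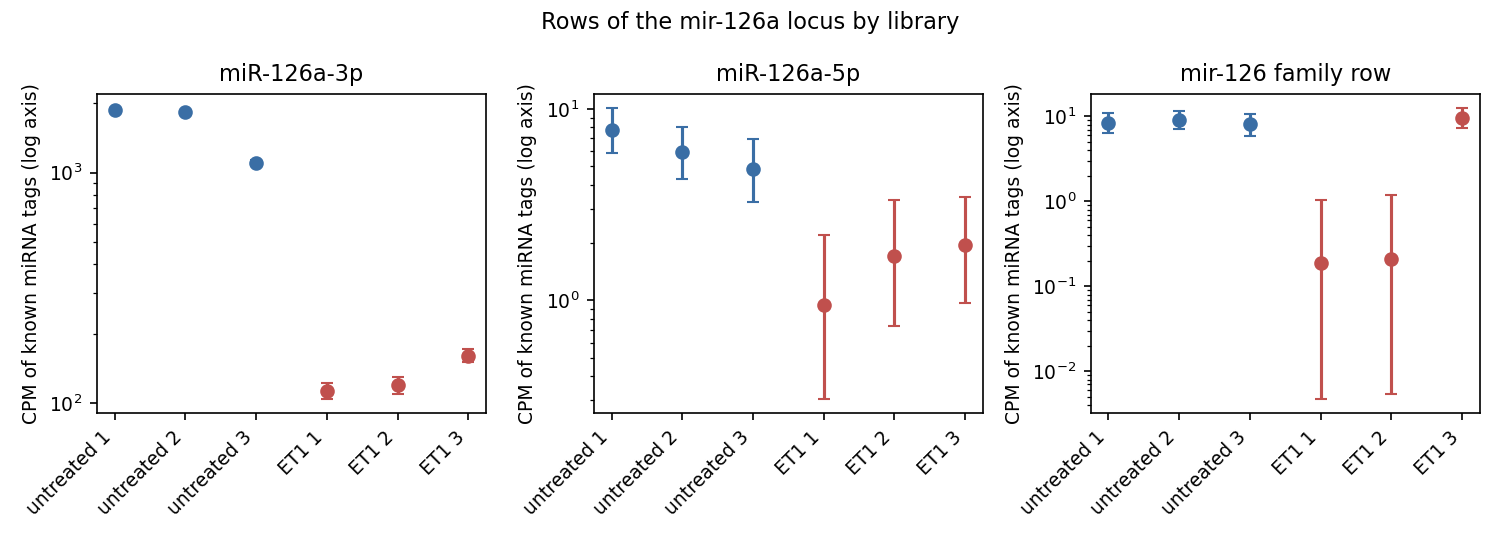
Levels of miR-126a-3p, miR-126a-5p and the Rfam mir-126 family row in each library, in CPM of known miRNA tags on log axes (untreated in blue, ET1 in red). Points are libraries and bars are exact 95% Poisson intervals; ET1 library 3 of the family row sits at 9.65 CPM, beside the untreated libraries, while both arms are low in it.

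The table holds 3 further rows named for miR-126. miR-126b-3p was counted 7, 1 and 2 times in untreated libraries and never in ET1 libraries. Untreated library 1 held 7 of its 10 tags. A count of 0 in the ET1 group allows up to 3 tags, or 0.190 CPM with its libraries pooled. The other 3 tags made 0.230 CPM in untreated libraries 2 and 3 pooled. These levels are too close for a fold to be given. miR-126b-5p was counted once, in untreated library 1.

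The Rfam family row for mir-126, a row that gathers tags assigned to the precursor family rather than to a mature arm, gave another pattern. It was counted 60, 65 and 48 times in untreated libraries and 1, 1 and 55 times in ET1 libraries 1, 2 and 3. In CPM these are 8.46, 9.20 and 8.05 against 0.188, 0.211 and 9.65, so ET1 library 3 stood with the untreated libraries and the groups overlapped. For each 1000 miR-126a-3p tags the family row had 4.51, 5.04 and 7.31 tags in untreated libraries, 1.66 and 1.77 in ET1 libraries 1 and 2, and 60.1 in ET1 library 3. The table does not give the sequences of these tags. Of 72 Rfam precursor rows with at least 60 tags in all, the mir-126 row had the second highest excess of ET1 library 3 over the other ET1 libraries, 37.0-fold with 0.5 added to each count, where the median row had 1.06-fold.

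The balance of the arms differed between the groups. For each miR-126a-5p tag there were 242, 307 and 227 miR-126a-3p tags in untreated libraries 1, 2 and 3, and 120, 70.6 and 83.2 in ET1 libraries 1, 2 and 3. The 5p arm made up 0.412%, 0.324% and 0.439% of miR-126a tags in untreated and 0.824%, 1.40% and 1.19% in ET1 libraries. All ET1 shares were above all untreated shares. The exact 95% Clopper-Pearson interval of ET1 library 1, 0.268% to 1.91%, spanned every untreated value, and that of ET1 library 3, 0.594% to 2.12%, reached below the upper bound of untreated library 3 (0.631%). At the untreated share of the arms, the 2082 miR-126a-3p tags of the ET1 group would go with 8.0 miR-126a-5p tags, and 24 were counted. The strands are copied into a library with efficiencies that depend on their sequence, so these are ratios of tags and are compared only between libraries.

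With 0.5 added to each count, the log2 ratio of 3p to 5p was 7.98 ± 0.234 in untreated and 6.38 ± 0.364 in ET1 libraries (SD, n = 3 each), a change of −1.60. Of 141 miRNAs with both arms among the tested rows, miR-126a had the 13th most uneven arms in untreated and the 20th in ET1 libraries. Its change was the 9th lowest of the 141, whose median change was 0.012 with quartiles at −0.41 and 0.53. In 27 of the 141 pairs (19.1%), miR-126a among them, there was no overlap between groups. The change of miR-126a therefore lay in the lower tail of this distribution without standing apart from it. The ratio comes from the same counts as the levels and is a description as well.

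**Figure D2:**
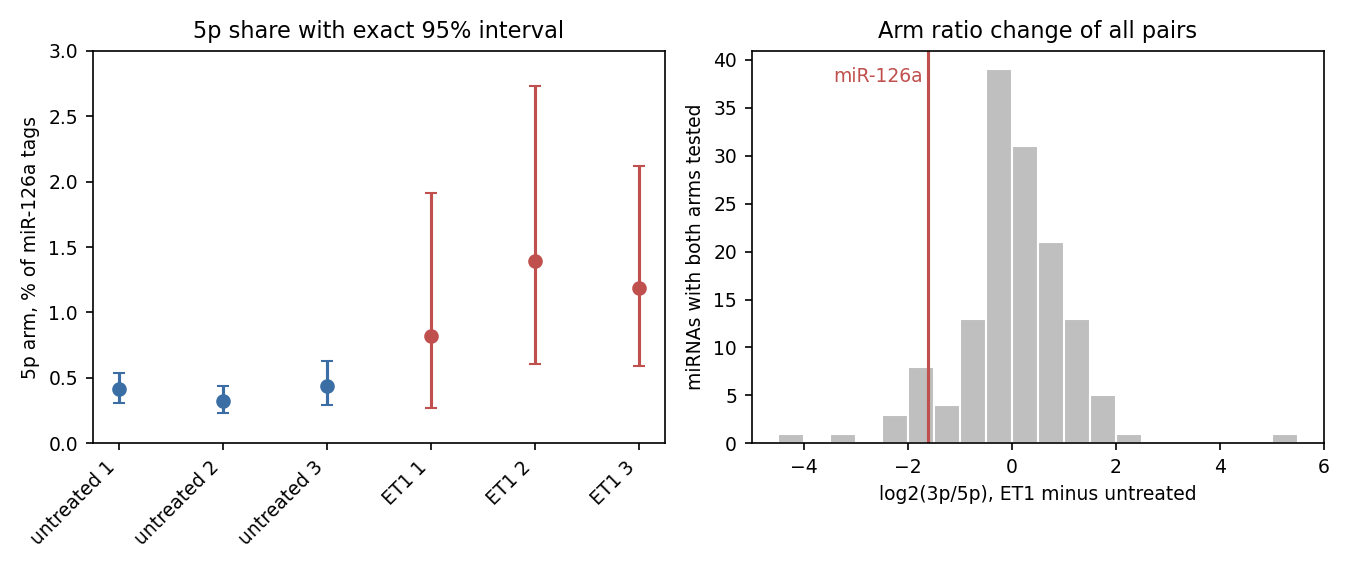
Left, the 5p arm as a percentage of miR-126a tags in each library, with exact 95% Clopper-Pearson intervals. Right, the change in log2(3p/5p), ET1 minus untreated, for the 141 miRNAs with both arms tested; the line marks miR-126a at −1.60.

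Set against the smooth muscle and stromal miRNAs of the same libraries, which needs no scaling, miR-126a-3p kept the same order. For each 1000 tags of miR-143-3p, the most abundant smooth muscle miRNA here, there were 74.5, 74.3 and 62.1 tags of miR-126a-3p in untreated and 9.84, 11.4 and 12.0 in ET1 libraries. The mean was 70.3 ± 7.09 against 11.1 ± 1.10 (SD, n = 3 each), 6.35-fold apart. On this measure the libraries of a group lay closer together than in CPM, and untreated library 3 was again the lowest of its group. For each 1000 tags of miR-145a-5p, made from the same transcript as miR-143, the values were 886, 584 and 422 against 42.1, 47.7 and 76.3. For each 1000 tags of miR-21a-5p, an abundant miRNA of stromal cells, they were 104, 128 and 99.6 against 8.72, 8.91 and 14.9. The fold between group means depended on the reference, 6.35 for miR-143-3p, 11.4 for miR-145a-5p and 10.2 for miR-21a-5p, since miR-143-3p was itself lower in ET1 libraries (mean 11789 CPM, SD 1506, against 22500 CPM, SD 4132; edgeR adjusted p = 0.10).

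**Figure D3:**
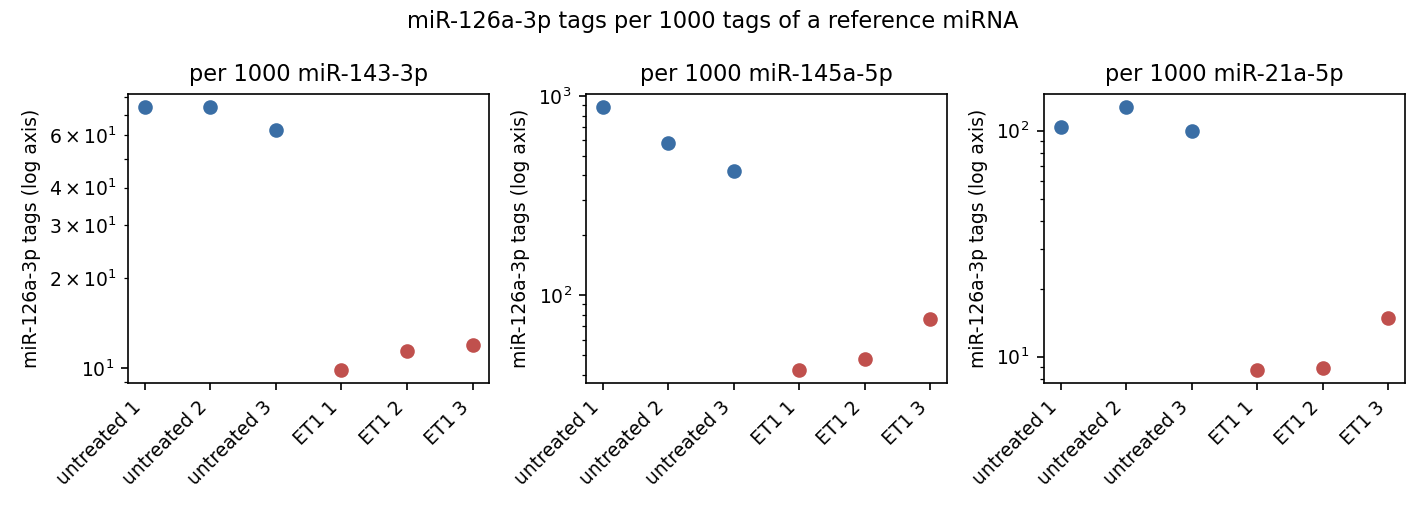
Tags of miR-126a-3p per 1000 tags of miR-143-3p, miR-145a-5p and miR-21a-5p in each library, on log axes (untreated in blue, ET1 in red). With each reference the lowest untreated library is above the highest ET1 library, by 5.19-fold, 5.53-fold and 6.70-fold.

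All known miRNAs were fitted together in edgeR, and 616 passed the filter on low counts. In that fit miR-126a-3p had the second lowest log2 difference of the 616 and miR-126a-5p the fifth lowest, where 90% of the miRNAs lay between −1.22 and 1.60 and the median was 0.0058. The lowest was miR-3074-5p, at −5.61 with an SE of 2.47 (edgeR adjusted p = 0.35). Of the 2 arms 1, miR-126a-3p, passed an adjusted p of 0.05. The background was 0.487% of the 616 lower in ET1 (3 miRNAs) and 1.79% in either direction (11 miRNAs, 3 lower and 8 higher). The split was 3 lower and 38 higher with library sizes alone, and 6 lower and 5 higher with levels scaled to all tags. The groups did not overlap, with ET1 lower, for 11.0% of the 616, both arms of miR-126a among them. Since the arms were proposed from this contrast, nothing is read from these counts. DESeq2 called both arms, and edgeR did so without the low count filter or with levels scaled to all tags. With all rows of the table fitted together edgeR called neither arm.

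In the authors' deposited table, miR-126a-3p had a mean of 544 RPM in untreated and 36.4 RPM in ET1 cells and a log2 ratio of −3.28, and miR-126a-5p a log2 ratio of −1.70. The log2 ratios of the pooled counts in the authors' deposited table were −3.98 and −2.39, each 0.70 lower than the deposited value.

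**Figure D4:**
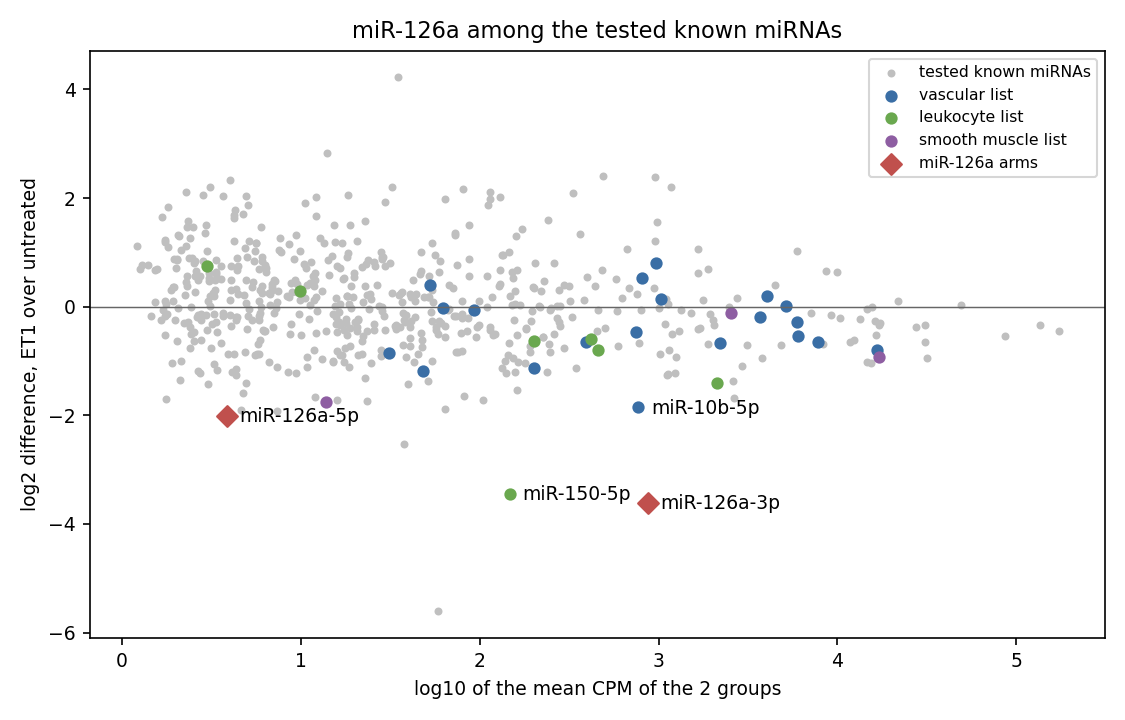
Log2 difference (ET1 over untreated) against log10 of the mean CPM for the 616 tested known miRNAs in grey, with the vascular, leukocyte and smooth muscle lists in colour and the miR-126a arms as red diamonds. miR-126a-3p (−3.61) and miR-150-5p (−3.45) lie together below the other well counted miRNAs.

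The miRNA whose pattern was most like that of miR-126a-3p was miR-150-5p, which is known from mature B and T cells. Likeness was the root mean square difference of log2(CPM + 0.5) over the 6 libraries after each miRNA was centred on its own mean, and was 0.32 for miR-150-5p against a median of 1.91 over the other 615 tested miRNAs. miR-150-5p stood at 319, 217 and 275 CPM in untreated and at 21.6, 22.6 and 30.0 CPM in ET1 libraries (log2 difference −3.45, SE 0.42; edgeR adjusted p = 0.00036). There were 5.87, 8.41 and 4.01 tags of miR-126a-3p for each tag of miR-150-5p in untreated and 5.23, 5.28 and 5.35 in ET1 libraries. The ET1 ratios lay inside the range of the untreated ratios.

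The next in likeness were miR-10b-5p (0.93), miR-126a-5p (0.94), miR-338-5p (1.01) and miR-376b-5p (1.02), which were much further away. miR-10b-5p, from the Hoxd cluster, stood at 1288, 1484 and 845 CPM in untreated and at 455, 254 and 291 CPM in ET1 libraries (log2 difference −1.85, SE 0.39; edgeR adjusted p = 0.026). The call of miR-10b-5p was lost when untreated library 2 (−1.69), ET1 library 2 (−1.72) or ET1 library 3 (−1.78) was left out. miR-338-5p stood at 21.8 to 29.0 CPM in untreated and 6.76 to 8.24 CPM in ET1 libraries (log2 difference −1.71; edgeR adjusted p = 0.072). It passed in DESeq2 (adjusted p = 0.0056) and in edgeR with levels scaled to all tags, without a filter and with the replicate number as a block (adjusted p = 0.043, 0.036 and 0.045). miR-376b-5p, of the imprinted Dlk1-Dio3 cluster, stood at 22.8 to 45.5 and 4.44 to 14.0 CPM (log2 difference −1.73; edgeR adjusted p = 0.091), and passed in DESeq2 and in edgeR without a filter (adjusted p = 0.038 and 0.030).

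**Figure D5:**
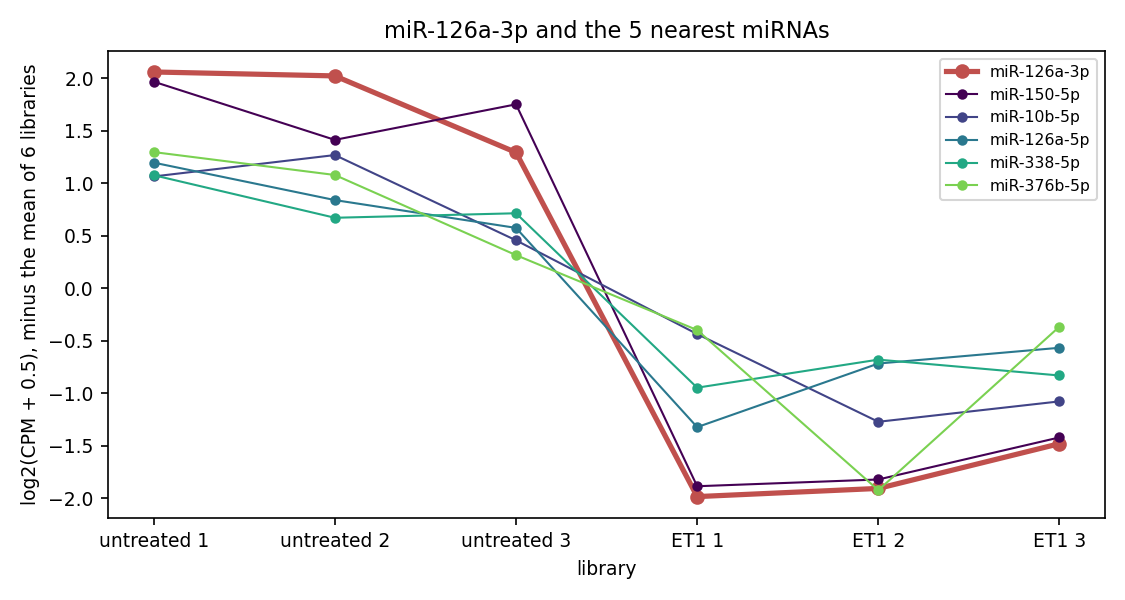
log2(CPM + 0.5) of miR-126a-3p and the 5 miRNAs nearest to it, each minus its own mean over the 6 libraries. Lines only join the points of a miRNA; miR-150-5p follows miR-126a-3p in every library to within 0.7, and the others span a smaller range.

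Other miRNAs that have been described in endothelial cells were read beside miR-126a-3p. It was proposed from this contrast, so nothing is read from their log2 differences lying nearer to 0 than its own. Of the 21 in the vascular list, nearly all also expressed in stromal and muscle cells, 20 were tested, 1 fell (miR-10b-5p) and none rose, with a median log2 difference of −0.38. Of all 616 tested miRNAs 1.79% passed, with a median of 0.0058. The most abundant members were miR-92a-3p, of the proliferation-linked miR-17-92 cluster, at 12106 ± 3911 against 21158 ± 6091 CPM, miR-24-3p at 6055 ± 864 against 9511 ± 2414 CPM, miR-23a-3p at 4899 ± 702 against 7130 ± 2009 CPM and miR-23b-3p at 5319 ± 863 against 6498 ± 1911 CPM (SD, n = 3 libraries each, ET1 first). Their log2 differences were −0.81, −0.65, −0.54 and −0.29 (edgeR adjusted p = 0.22, 0.30, 0.38 and 0.70). The summed level of the list was 59774 to 68311 CPM in untreated and 43127 to 52678 CPM in ET1 libraries.

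Lists of leukocyte miRNAs and of red cell and platelet miRNAs were read next. No list was made for blood stem cells, which also carry miR-126, and none for platelets apart from red cells. In the leukocyte list 7 of 11 members were tested, 1 fell (miR-150-5p) and none rose, with a median of −0.64, where 0.487% of all 616 tested miRNAs fell and the median of all 616 was 0.0058. miR-142a, which all leukocytes express, was near absence: miR-142a-3p had 0, 5 and 6 tags in untreated and 10, 14 and 8 in ET1 libraries, and miR-142a-5p at most 7 in any library. The most abundant member, miR-155-5p, an inflammatory miRNA, had a mean of 3070 ± 1264 CPM in untreated and of 1156 ± 445 CPM in ET1 libraries (SD, n = 3 each; edgeR adjusted p = 0.086). Its log2 difference was −1.41, and a call was gained when untreated library 3 (−1.68) or ET1 library 1 (−1.79) was left out. The summed level of the list was 2889 to 6476 CPM in untreated and 1499 to 2877 CPM in ET1 libraries. On this scale the sum over all known miRNAs was lower in ET1 libraries as well.

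In the red cell and platelet list 3 of 5 members were tested, and in edgeR none passed as lower in ET1 libraries and 1 as higher. It was the row of miR-486a-5p and miR-486b-5p, which went to 823 ± 362 from 154 ± 77.8 CPM (edgeR adjusted p = 0.024). Over all 616 tested miRNAs 1.79% passed. This call was lost when untreated library 2 (2.28) or ET1 library 3 (2.23) was left out. miR-451a, the erythroid miRNA, stood at 48.9, 88.4 and 673 CPM in untreated and at 38.1, 301 and 212 CPM in ET1 libraries. Its values had no order like that of miR-126a-3p. miR-144-3p had no tag in any untreated library and 1, 10 and 5 tags in ET1 libraries 1, 2 and 3. The lists of the other cell types held no member that passed in edgeR: 0 of 3 for smooth muscle, 0 of 6 for mesenchymal, 0 of 10 for epithelial and Sertoli and 0 of 7 for germ cell miRNAs, with 2 members of each at an unadjusted p under 0.05. Over all tested miRNAs that share was 18.3% (113 of 616). DESeq2 called 1 smooth muscle and 1 germ cell member, and limma-voom none. Their most abundant members were miR-143-3p (−0.93), miR-22-3p (−0.65), miR-202-3p (0.052) and miR-470-5p (0.039).

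The libraries also differed in make-up. Known miRNAs were 30.1% to 45.6% of all tags in untreated and 22.6% to 25.5% in ET1 libraries, and rRNA fragments 3.22% to 5.63% and 7.12% to 11.0%. Whether these shares have a part in the difference of miR-126a was not tested. No sample of pure endothelial cells is analysed here, so the level of miR-126a cannot be turned into a number of endothelial cells. In RNA from a whole culture, fewer cells of a type and less of a miRNA per cell cannot be told apart.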

How the data were processed

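Tag counts per small RNA row were deposited by the authors for 6 libraries, per the file headers, with Bowtie2 and mm10 named in the submitters' processing notes. The handling of tags that match several loci is not given in the sources used here. The columns headed TPM are, from the values, RPM that the authors scaled to all tags. A second deposited table, named for DEGseq, gives the authors' pooled counts, mean RPM, log2 ratio, p-value and q-value; its p-values were not used. Known miRNA counts were fitted in edgeR 4.0.16 (R 4.3.3) with TMM scaling, the default low count filter, the group as the only term, a robust quasi-likelihood test and Benjamini-Hochberg adjustment at 0.05. DESeq2 1.42.0 and limma-voom (limma 3.58.1) were alternatives. The fit was tested on simulated data. The 4 rows that hold exon, intron, intergenic and repeat totals entered no fit. Libraries of a group differed well beyond sampling noise, so none was counted as a repeat deposit: chi-square over degrees of freedom was 402.4 to 1477 for pairs within a group. The labels do not say that libraries are separate cultures, so the spread behind each p-value may be technical. The hairpin was folded with RNAfold 2.7.2. The arms and the cell type lists were chosen with earlier results of these data known. The miRNAs named were set by rule: the rows of miR-126, the 5 nearest in likeness, and each list's most abundant members (4 for the vascular list, 1 for the others) and members that passed. miR-3074-5p, miR-142a, miR-144-3p, miR-451a, miR-145a-5p and miR-21a-5p were named beyond it, the first 4 after their values were seen.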

Additional observations from a re-analysis of the deposited data

How the results depend on the processing

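The direction of both arms was the same, lower in ET1 libraries, under every alternative that gave a value. The log2 difference of miR-126a-3p was −3.22 with library sizes alone and −4.15 with all rows fitted together, and that of miR-126a-5p −1.64 and −2.51. With 1 library left out they ran from −3.81 to −3.47 and from −2.23 to −1.79. miR-126a-5p gave no value when 10 CPM was required in 3 libraries or with the GC correction, which was fitted on the 514 of 616 tested miRNAs (83.4%) with a sequence. The change in the log2 arm ratio ran from −1.80 to −1.44 with 1 library left out, and that of the ratio to miR-143-3p from −2.75 to −2.58. It was −3.49 with miR-145a-5p and −3.39 with miR-21a-5p as the reference. With library sizes alone 4 of the 5 nearest miRNAs were the same.

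The count of miRNAs past the threshold, 11, was 41 with library sizes alone (3 lower, 38 higher), which moved the median log2 difference to 0.37; relative to that median miR-126a-3p was at −3.59. It was 37 without a low count filter, 38 in DESeq2 and 21 with the replicate block, and 2 to 30 in fits on 5 libraries (2 without ET1 library 3, 5 without untreated library 2, 25 without untreated library 3 and 30 without ET1 library 1). With all rows fitted together edgeR called 0, with 116 at an unadjusted p under 0.05. Deviations of same-numbered libraries correlated at 0.275, 0.06 and 0.253. No correlation of differently numbered libraries was computed beside them, so these values cannot decide whether the replicate numbers pair the libraries. The replicate block left the arms at −3.59 and −2.01.

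In the lists, all rows fitted together gave 0 calls. The miR-126 rows had 2 calls with levels scaled to all tags, without a filter and in DESeq2. The vascular list had 0 or 1 with 1 library left out. The leukocyte list had 2 without a filter and 0 with the GC correction, for which miR-150-5p had no sequence, and 1 to 2 with 1 library left out. The red cell list had 2 with library sizes alone, without a filter, in DESeq2 and with the replicate block, 0 with the GC correction, for which the miR-486 rows had no sequence, and 0 to 2 with 1 library left out. The smooth muscle list had 1 without a filter, in DESeq2 and with the block, the mesenchymal list 1 and the germ cell list 2 with library sizes alone, and the germ cell list 1 without a filter and in DESeq2; each had 0 to 1 with 1 library left out. Where no cause is named, the cause was not tested. At 5 to 11 tags a library, depth limits miR-126a-5p in the ET1 group.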

Other observations

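Among the 72 Rfam precursor rows with at least 60 tags, the only row in which ET1 library 3 exceeded the other ET1 libraries by more than the mir-126 row was that of mir-320, a miRNA made without Drosha. It was counted 242, 285 and 452 times in untreated libraries and 258, 186 and 11618 times in ET1 libraries 1, 2 and 3, a 52.2-fold excess with 0.5 added to each count. The next row after mir-126 was mir-611, at 7.95-fold. All 168 Rfam precursor rows together held 125102, 86957 and 115978 tags in the ET1 libraries, so the total of the class in ET1 library 3 lay between those of the other ET1 libraries.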
